A study of Mus musculus with 4 samples.

Results

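The Ly49 receptors are a family of lectin-like membrane proteins encoded side by side in the natural killer (NK) gene complex of mouse chromosome 6. Of this family 8 genes, Klra1, Klra2, Klra3, Klra4, Klra7, Klra8, Klra9 and Klra17, were described here, out of 43346 gene entries in the tables. They were chosen on the contrast between monocytes and neutrophils measured in these same libraries, so their values in that contrast are given as a description, with no test. Another 6 annotated Ly49 genes and pseudogenes were measured and are given by their counts.

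Total RNA depleted of ribosomal RNA was sequenced from peripheral blood of adult C57BL6 mice in 2 libraries of monocytes (MON) and 2 libraries of neutrophils (NEU). Both came from blood separated on Ficoll, and no treatment or mutation is named. MON are Gr-1+Mac-1+ cells that were sorted from the mononuclear layer (the study's methods give the gate as Ly6g- and CD11b+, another name of Mac-1), whereas NEU are unsorted cells of the pellet once red cells had been lysed. The study describes its replicates as separate groups of mice or separately handled aliquots, and the spread between 2 libraries may therefore be technical.

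Ly49 proteins sit in the cell membrane as dimers and bind MHC class I molecules on neighboring cells. Most members are inhibitory: a tyrosine motif in the cytoplasmic tail recruits phosphatases when the receptor is engaged. A few members are activating, lack that motif and carry a charged residue in the membrane that holds the adaptor DAP12, the product of Tyrobp. Most of the family is known from NK cells, where each cell switches on its own subset of the genes. Klra2 (Ly49B) and Klra17 (Ly49Q) are the members known from myeloid cells, and Klra17 is also known from plasmacytoid dendritic cells.

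The coding sequences are shown first because they separate inhibitory from activating members. The first 60 bases of the coding sequence of each member, from GENCODE M21 on GRCm38, are printed with the codons of the inhibitory tyrosine motif in capitals.
Klra2: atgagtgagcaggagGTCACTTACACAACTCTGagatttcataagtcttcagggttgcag
Klra17: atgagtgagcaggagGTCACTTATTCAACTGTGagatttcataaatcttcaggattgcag
Klra1: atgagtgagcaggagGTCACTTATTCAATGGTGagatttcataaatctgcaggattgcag
Klra3: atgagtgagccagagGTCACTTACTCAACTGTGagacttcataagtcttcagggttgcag
Klra7: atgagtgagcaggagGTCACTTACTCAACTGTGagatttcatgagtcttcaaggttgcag
Klra9: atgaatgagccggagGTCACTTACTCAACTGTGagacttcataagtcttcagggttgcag
Klra4: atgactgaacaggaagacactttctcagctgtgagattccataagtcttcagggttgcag
Klra8: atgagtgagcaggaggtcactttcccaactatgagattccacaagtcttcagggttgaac
The motif was found at residue 6 in 6 of the 8 members and was absent from Klra4 and Klra8.

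The stretch that spans the membrane carries the other mark of an activating receptor. The 57 bases that encode the most hydrophobic run of 19 residues are printed for both activating members and for both myeloid members, with any arginine codon in capitals.
Klra4: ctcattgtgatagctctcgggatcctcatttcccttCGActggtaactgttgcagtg
Klra8: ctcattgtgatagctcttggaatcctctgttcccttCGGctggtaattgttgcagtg
Klra2: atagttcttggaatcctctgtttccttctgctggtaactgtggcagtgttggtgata
Klra17: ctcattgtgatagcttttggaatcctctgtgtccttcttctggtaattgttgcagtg
Klra4 and Klra8 held 1 arginine codon each in this run, and Klra2 and Klra17 held no codon for a positively charged residue there. Klra3 and Klra9 held 1 lysine codon near the start of the run. Klra2 and Klra17 thus carry the inhibitory motif without the arginine codon.

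The members differed in how far reads could be shared between them. Klra3 and Klra9 were the closest pair, with 95.9% of aligned coding bases identical, and Klra8 was 91.9% identical to Klra9. Klra17 was 77.9% identical to its nearest member, Klra1. Klra2 stood farthest from the family: its identity to Klra17, its nearest member, was 63.0% over the whole alignment, in which its longer coding sequence (321 residues, against 273 in Klra17) counts as mismatch. Of all 50-base words in the transcripts of each gene, 33.1% in Klra8, 31.5% in Klra9, 20.7% in Klra3 and 12.3% in Klra7 also occurred in another gene, while 4.7% did so in Klra4 and 3.0% in Klra1. Neither Klra2 nor Klra17 shared a single 50-base word with another gene. The words are those of GENCODE M21 transcripts, whereas the study counted reads on an earlier GENCODE release, whose transcripts may differ.

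The error from dividing reads among genes was given for every count. RSEM, the authors' program for assigning reads, gives a posterior standard deviation (SD) for each count, which was 0 for 25 of 32 values of the members and at most 5.81 reads, for Klra7 in MON replicate 1. Relative to the posterior mean it exceeded 1% in 1 member, Klra7, where it reached 5.11% in NEU replicate 2 on a count of 22.3. Among all 14309 tested genes, 1521 (10.6%) exceeded 1% in some library. For Klra2 and Klra17 the posterior SD was 0 in all 4 libraries. It measures how reads were divided among the annotated transcripts only; reads from a copy outside the annotation are not covered by it.

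Depth was similar across libraries, with 25538457 and 26076416 expected counts over all entries in MON and 20549618 and 21634865 in NEU. Levels below are CPM, the expected count scaled to a common library total over gene entries, and all 8 members passed the low-count filter. The larger part of the family, 6 members, shared one pattern, with high levels in MON and a few counts in NEU, while Klra2 was abundant in both groups and Klra17 was far higher in NEU. The plot of CPM by library shows these patterns side by side.

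**Figure D1:**
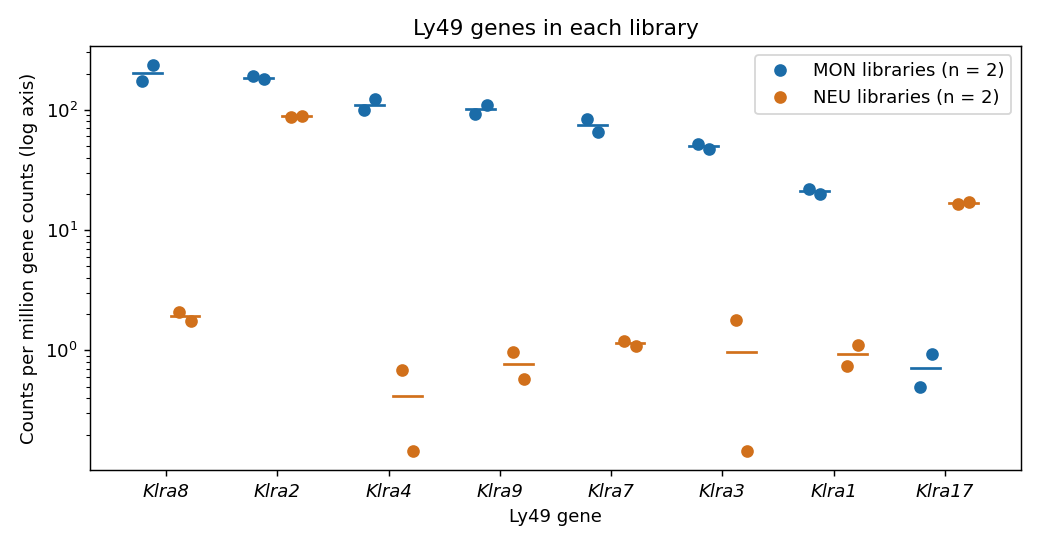
Level of each Ly49 gene in CPM on a log axis, with 1 point per library (2 MON, blue, left; 2 NEU, orange, right) and a line at the mean. Klra2 lies between 87.5 and 189 in all 4 libraries, Klra17 is the member that is higher in NEU, and the other 6 lie between 19.9 and 235 CPM in MON and at or below 2.08 CPM in NEU.

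Klra17, at chr6:129831154-129876672 on the minus strand (GRCm38), runs against the rest of the family. It had 13 and 24 counts in MON replicates 1 and 2, against 356 and 355 counts in NEU replicates 1 and 2. These counts correspond to 0.499 and 0.940 CPM in MON, against 16.5 and 17.3 CPM in NEU. The groups did not overlap, and the mean in NEU was 23.5 times that in MON, with a counting interval of 16.9 to 33.7 (exact, 95%), which covers counting error only. As a log2 ratio of MON over NEU this is -4.55 ± 0.46 (SE, n = 2 each).

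Klra2, at chr6:131219223-131247362 on the minus strand, was the member with the most even levels. It had 4939 and 4601 counts in MON, against 1893 and 1817 counts in NEU. In CPM these are 189 and 180 in MON, against 87.5 and 88.4 in NEU. Both MON libraries lay above both NEU libraries, with a mean 2.10 times higher in MON and a log2 ratio of 1.07 ± 0.04 (SE, n = 2 each). The replicates of Klra2 differed by less than those of any other member on this scale, with a combined spread of 0.05 in log2 units.

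Klra8 (Ly49H), the activating receptor known for recognizing a protein of mouse cytomegalovirus, had the highest mean CPM of the members in MON. Klra2 was above it in MON replicate 1 in CPM, but below it in TPM, which corrects for transcript length (27.7 against 39.95). Klra8 had 172 and 235 CPM in MON replicates 1 and 2, against 2.08 and 1.75 CPM in NEU. The mean was 106 times higher in MON, a log2 ratio of 6.73 ± 0.26 (SE, n = 2 each). Klra4 (Ly49D), the other activating member, had 99.2 and 122 CPM in MON, against 0.693 and 0.146 CPM in NEU. Its log2 ratio, 8.04 ± 1.13 (SE, n = 2 each), rests on 15 and 3 counts in NEU. The ratio was 9.56 without NEU replicate 1 and 7.32 without NEU replicate 2. Although Klra4 thus had the largest ratio of the members, its distance from the next one, Klra9 at 7.02, lies within that error.

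The inhibitory members of the NK type followed the same course, at lower mean CPM in MON than Klra8 and Klra4. In TPM, Klra9 and Klra4 were alike in MON (means of 22.9 and 22.7). Klra9 (Ly49I) had 91.9 and 109 CPM in MON, against 0.971 and 0.584 CPM in NEU, a log2 ratio of 7.02 ± 0.39 (SE, n = 2 each). Klra7 (Ly49G) had 84.3 and 65.1 CPM in MON, against 1.202 and 1.08 CPM in NEU, a log2 ratio of 6.03 ± 0.20 (SE, n = 2 each). In each of these genes the groups were far apart.

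Klra3 (Ly49C), an inhibitory receptor known to bind class I molecules of this strain, had 51.8 and 47.4 CPM in MON, against 1.803 and 0.146 CPM in NEU. Its counts in NEU were 39 and 3, the widest disagreement between NEU replicates among the 8 members, and its log2 ratio was 5.67 ± 1.81 (SE, n = 2 each). That ratio became 8.41 without NEU replicate 1 and 4.78 without NEU replicate 2, so 1 NEU library decides its size. Klra1 (Ly49A), the member first studied as an inhibitory receptor, was the lowest of this group, with 22.0 and 19.9 CPM in MON, against 0.740 and 1.12 CPM in NEU. Its log2 ratio was 4.49 ± 0.31 (SE, n = 2 each).

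Summed over the 6 NK-type members, the level was 521 and 598 CPM in MON, against 7.49 and 4.83 CPM in NEU, a log2 ratio of 6.51 ± 0.33 (SE, n = 2 each). Summed over all 8 members it was 711 and 779 CPM in MON, against 111 and 111 CPM in NEU, a log2 ratio of 2.75 ± 0.07 (SE, n = 2 each). The gap between both ratios comes from Klra2 and Klra17, which held most of the NEU sum. In all, 7 members had both MON libraries above both NEU libraries and 1 had both NEU libraries above both MON libraries. Over all 14309 tested genes these shares were 35.2% and 39.9%, and nothing is read from the members' count, since the contrast chose them.

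The make-up of the family sum differed accordingly. Klra2 held 26.6% and 23.1% of the 8-gene count in MON, against 79.3% ± 1.0 in NEU (SD, n = 2). Klra17 held 0.0701% and 0.121% in MON, against 14.8% and 15.6% in NEU, with exact 95% intervals of 13.4 to 16.2% and 14.2 to 17.2% in the NEU libraries. The largest share in MON was that of Klra8 in replicate 2, at 30.1% (29.5 to 30.7%). In MON replicate 1 Klra8 held 24.2% (23.6 to 24.8%) and stood below Klra2 by count. Counts are not corrected for transcript length, and in TPM Klra8 was above Klra2 in both MON libraries.

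**Figure D2:**
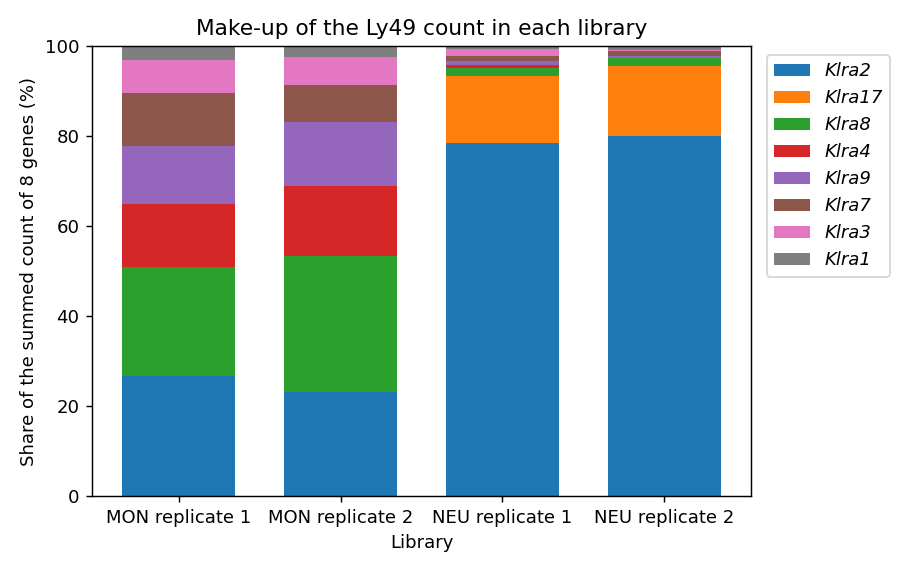
Share of the summed count of the 8 Ly49 genes held by each gene, in percent, with 1 stacked bar per library (2 MON, left; 2 NEU, right). Klra2 and Klra17 together fill all but 6.72% and 4.37% of the NEU bars, whereas 73.3% and 76.8% of the MON bars belong to the other 6 genes.

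Within MON, members did not move together from one library to the other. Klra8 was 1.36 times as high in MON replicate 2 as in MON replicate 1 (counting interval 1.31 to 1.42), Klra4 was 1.23 times as high (1.17 to 1.30) and Klra9 was 1.19 times as high (1.13 to 1.26). Klra7, in contrast, stood at 0.772 times its level in MON replicate 1 (0.724 to 0.823) and Klra3 at 0.915 times (0.846 to 0.990). Klra2 stood at 0.951 times (0.914 to 0.990). The interval of Klra1, 0.8004 to 1.02, included no change. These ratios are in CPM, and those of Klra9 and Klra1 depend on the scale. Klra9 had 22.23 and 23.63 TPM in MON replicates 1 and 2, and the credibility intervals that RSEM gives overlapped. Klra1 fell from 4.68 to 3.38 TPM, with credibility intervals apart. Klra8, Klra4, Klra7, Klra3 and Klra2 kept their direction in TPM, also with credibility intervals apart. Both activating genes, Klra4 and Klra8, together made up 52.0% of the NK-type count in MON replicate 1 (51.2 to 52.9%) and 59.6% in MON replicate 2 (58.8 to 60.4%). In NEU the same share was 37.0% (29.6 to 44.97%) and 39.3% (29.7 to 49.7%), on 162 and 99.3 counts in all. Reads amplified by PCR are not independent molecules, so the intervals of these ratios and shares cover counting error only. With 2 libraries such a difference cannot be tested.

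Levels can be ordered between genes on the TPM scale, which is corrected for transcript length. In MON, Klra8 came first at 44.4 ± 6.3 TPM, followed by Klra2 at 25.97 ± 2.42, Klra9 at 22.9 ± 1.0, Klra4 at 22.7 ± 1.6, Klra7 at 18.9 ± 4.4, Klra3 at 11.8 ± 1.6, Klra1 at 4.03 ± 0.92 and Klra17 at 0.160 ± 0.057 TPM (SD, n = 2). Klra9 could not be separated from Klra4, nor Klra4 from Klra7, since their libraries overlapped. Klra8 ranked 382 and 285 among 21474 protein-coding genes in the MON libraries, and Klra2 ranked 605 and 624.

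In NEU the order was another. Klra2 came first at 11.8 ± 0.5 TPM (SD, n = 2), at ranks 1309 and 1287, and Klra17 followed at 3.62 ± 0.04 TPM, at ranks 4166 and 4013. The highest of the other 6 was Klra8 at 0.410 ± 0.071 TPM, and the lowest was Klra4 at 0.0850 ± 0.0778 TPM. The credibility interval that RSEM gives for Klra8 in NEU replicate 2, 0.256 to 0.491 TPM, overlaps that of Klra7 in the same library, 0.206 to 0.463 TPM. The interval of Klra4 in that library, 0.00669 to 0.0742 TPM, lies below both.

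All 8 genes are transcribed from the minus strand. The 6 NK-type members lie within 343 kb of each other. Klra17 lies 167 kb from Klra4, at one edge, and Klra2 lies 832 kb beyond Klra1, at the other. The plot of log2 ratios along the chromosome places both at the ends of the series.

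**Figure D3:**
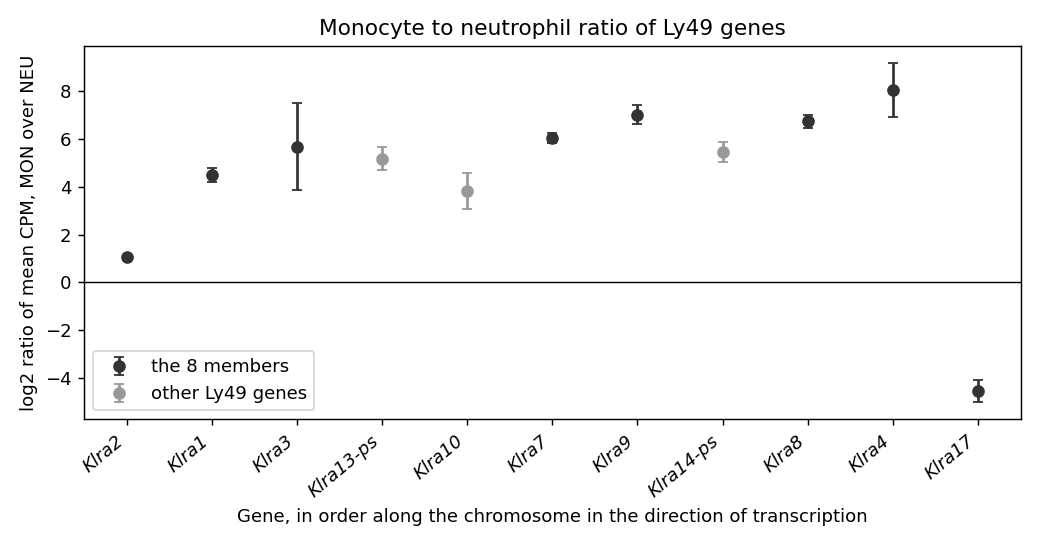
Log2 ratio of mean CPM, MON over NEU, for Ly49 genes in their order along the chromosome, with standard errors from 2 libraries per group (black, the 8 members; gray, other Ly49 genes and pseudogenes). Klra2 at 1.07 and Klra17 at -4.55 stand at the ends, and Klra5, Klra6 and Klra11-ps are not drawn because at least 1 NEU library had 0 counts.

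The other Ly49 genes between them had few or no counts in NEU. The pseudogene Klra13-ps had 1693 and 1767 counts in MON, against 53 and 25.7 in NEU, and Klra14-ps had 702 and 666 counts in MON, against 17 and 9 in NEU. Klra10 had 186 and 131 counts in MON, against 5 and 13 in NEU. Klra5 had 108 and 32 counts in MON, against 0 and 1 in NEU. Klra6 had 90 and 68 in MON, against 0 in both NEU libraries, and Klra11-ps had 27 and 0 in MON, against 0 in both NEU libraries. Klra5, which neighbors Klra17 on the chromosome, thus did not share its direction. Klra7 and Klra13-ps share 12.3% of the 50-base words of Klra7, and their posterior SDs were the same in each library.

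The promoters are shown because Klra2 and Klra17, the members with most of the family's counts in NEU, can be set beside the rest there. From RefSeq (GRCm38.p6), 250 bases before to 50 bases after each annotated start were searched on both strands for GAGGAA, the core bound by ETS factors such as PU.1, for TTGCNNAA, the core bound by C/EBP factors, for TGTGGT (RUNX type) and for TCACACC (T-box type). GAGGAA was found in 7 of the 8 members and in 28.3% of 32851 promoters. TTGCNNAA was found in 5 members (Klra2, Klra17 and, elsewhere in the window, Klra3, Klra4 and Klra8) and in 10.8% of promoters. TGTGGT was found in 16.8% and TCACACC in 4.0% of promoters. These shares are of windows, whereas Klra7 and Klra8 have more than 1 annotated start and were counted when any window matched. The Klra7 window without GAGGAA held none of the other motifs either. The stretch of 45 bases around the shared GAGGAA match is printed for 7 members, with GAGGAA (here on the other strand) and an adjoining TTGCNNAA in capitals.
Klra17: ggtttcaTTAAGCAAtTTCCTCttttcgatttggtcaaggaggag
Klra2: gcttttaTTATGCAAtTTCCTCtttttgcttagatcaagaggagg
Klra3: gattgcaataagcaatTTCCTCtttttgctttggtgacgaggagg
Klra4: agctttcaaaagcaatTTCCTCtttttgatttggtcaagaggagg
Klra7: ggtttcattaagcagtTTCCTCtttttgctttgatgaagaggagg
Klra8: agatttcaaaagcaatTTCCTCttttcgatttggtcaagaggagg
Klra9: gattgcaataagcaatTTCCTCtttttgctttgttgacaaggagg
These stretches begin 89 bases before the start in Klra17 and 86 bases before it in Klra2.

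Both motifs stood side by side in Klra17 and Klra2, with 1 base between them, in the order and orientation printed above. That arrangement, searched on both strands, was in no other of the 32851 promoters (2, or 0.00609%). Other orders and orientations of the pair were not searched. Both motifs occurred anywhere in the window in 958 promoters (2.92%). The arrangement was looked for after these sequences had been seen, and related genes share ancestry, so the rarity of so long a pattern is a description and says nothing of binding. In the printed stretch the other 5 members hold GAGGAA without a full TTGCNNAA beside it. Klra1 held neither motif in its window, and it was the member whose window held TGTGGT and TCACACC.

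Genes of the NK lineage moved with the 6 NK-type members, and their values stand beside them for that reason. Of 18 NK marker genes, 17 were called higher in MON and none higher in NEU by edgeR at an adjusted p under 0.05 (Benjamini-Hochberg), with a median log2 ratio of 5.07, beside -0.06 over all tested genes. Over all tested genes, 20.8% were called higher in MON and 21.8% higher in NEU. The gene lists here and below were chosen with earlier results of these data known, so their counts of called genes are a description. Gzma, a granzyme of cytotoxic lymphocytes, averaged 1349 ± 113 CPM in MON and 10.9 ± 0.3 CPM in NEU (SD, n = 2 each). Ncr1, the receptor NKp46 that defines NK cells, averaged 240 ± 10 CPM in MON and 3.19 ± 1.96 CPM in NEU. All 13 tested genes of a list of further lectin-like receptors of the NK complex, which shares Klrb1c and Klrd1 with the NK markers, were called higher in MON, among them Klrk1 (NKG2D) at 206 ± 10 CPM in MON and 5.36 ± 0.40 CPM in NEU.

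The counts of the family can also be set against the NK marker counts of the same library, as a description. The 18 NK genes summed to 3081 and 3020 CPM in MON, against 259.6 and 231 CPM in NEU, so dividing by this sum moves every gene toward NEU by construction. Per 100 counts of the NK genes, the 6 NK-type members summed to 16.9 and 19.8 counts in MON, against 2.88 and 2.09 counts in NEU. Klra2 had 6.15 and 5.97 counts in MON, against 33.7 and 38.3 counts in NEU, and Klra17 had 0.0162 and 0.0311 counts in MON, against 6.34 and 7.49 counts in NEU. On this scale each of the 6 NK-type members remained higher in both MON libraries, while Klra2 stood higher in both NEU libraries.

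The ratio depends on 1 gene of the list. Il18rap, at 212 ± 5 CPM in MON and 187 ± 20 CPM in NEU, was the NK marker not called different, and it made up most of the NK sum in NEU. Without it, an alternative chosen after its values were seen, the 6 NK-type members came to 18.1 and 21.3 counts per 100 NK counts in MON, against 12.8 and 8.46 in NEU, and the groups of Klra3 overlapped. Klra1 then had 0.766 and 0.709 counts in MON, against 1.27 and 1.96 in NEU, the opposite direction. Since all genes left in that sum were called higher in MON, nothing is read from the closer values. In bulk RNA, fewer cells of a type and less RNA per cell cannot be told apart, and the part of NK cells in these levels was not tested.

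**Figure D4:**
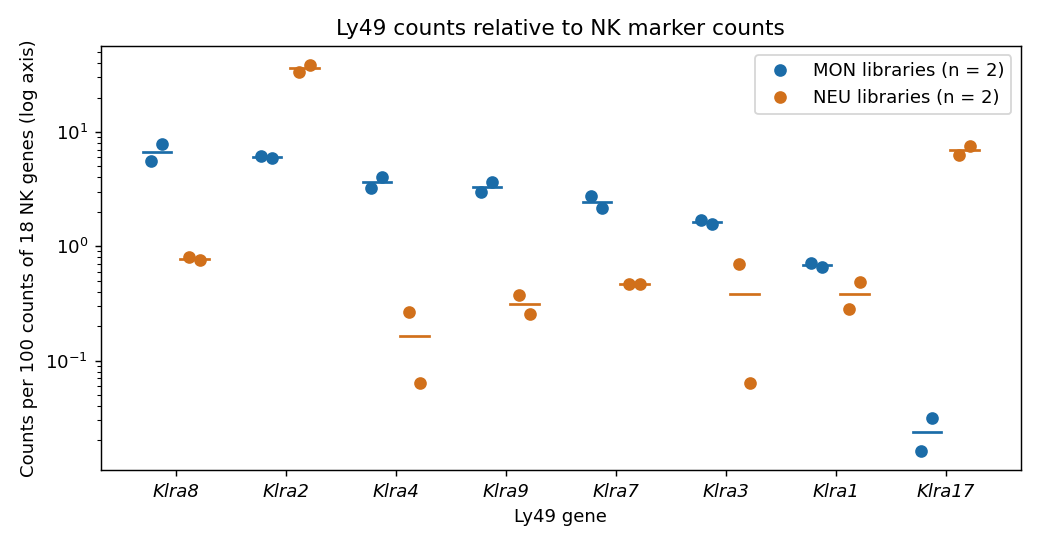
Counts of each Ly49 gene per 100 counts of the 18 NK marker genes in the same library, on a log axis, with 1 point per library (2 MON, blue, left; 2 NEU, orange, right) and a line at the mean. Klra2 and Klra17 are higher in NEU on this scale and the other 6 genes are higher in MON; the NK sum itself is higher in MON, which moves all genes toward NEU.

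Markers of other blood cells were present in both groups. All 12 nonclassical monocyte markers were called higher in MON (summed level 9389 to 9541 CPM in MON, 614.9 to 636 CPM in NEU), and of 10 classical monocyte markers 5 were called higher in MON and 4 higher in NEU. Of 14 neutrophil markers 13 were called higher in NEU and 1, Retnlg, higher in MON. Their summed level was 336 to 367 CPM in MON and 7981 to 8182 CPM in NEU. Ly6g, which encodes one of the surface proteins that the Gr-1 antibody binds, was at 0 in both MON libraries. In NEU it was also low, at 6.22 ± 0.68 CPM (SD, n = 2). All 6 B cell markers were called higher in NEU (278 to 355 CPM in MON, 2003 to 2061 CPM in NEU). Of 10 T cell markers 8 were called higher in NEU and 1, Cd28, higher in MON. The T cell markers summed to 48.1 to 64.1 CPM in MON and 166 to 173 CPM in NEU. The genes listed as plasmacytoid dendritic cell markers summed to 129 to 141 CPM in MON and 418 to 429 CPM in NEU. Spib, Tcf4 and Ly6d made up most of the NEU sum, and from which cells their RNA came was not tested. Of the 7 genes of this list that were tested, 1, Runx2, was called higher in MON and 5 were called higher in NEU. Among them Pacsin1 was at 0 CPM in both MON libraries and 7.15 ± 0.48 CPM in NEU, Tcf4 at 67.6 ± 1.7 CPM in MON and 105 ± 10 CPM in NEU, Spib at 16.6 ± 5.3 CPM in MON and 182 ± 3 CPM in NEU, and Ly6d at 14.0 ± 2.2 CPM in MON and 104 ± 2 CPM in NEU. Siglech, named after its values were seen, was not called, at 0.983 ± 0.671 CPM in MON and 0.333 ± 0.079 CPM in NEU (SD, n = 2 each). The part of the B, T and dendritic cells in the Ly49 levels was not tested.

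The molecules that Ly49 receptors signal through were measured in both groups, and their log2 ratios are those of edgeR. Among 4 adaptor genes 3 were called higher in MON: Tyrobp, the adaptor of activating Ly49 receptors, at 295 ± 14 CPM in MON and 222 ± 15 CPM in NEU (log2 ratio 0.41 ± 0.09, adjusted p = 0.017), Fcer1g at 217 ± 30 CPM in MON and 82.9 ± 3.0 CPM in NEU, and Cd247 at 34.5 ± 8.1 CPM in MON and 16.7 ± 0.9 CPM in NEU. Hcst, the adaptor DAP10, had 7.95 ± 3.71 CPM in MON and 3.55 ± 0.41 CPM in NEU and was not called. Transcripts of the adaptor of activating receptors were thus abundant in both groups, also in NEU, where Klra4 and Klra8 had few counts.

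Of the 3 phosphatases that inhibitory tails recruit, 1 was called. Ptpn6 (SHP1) stood at 784 ± 95 CPM in MON and 806 ± 0.12 CPM in NEU, with a log2 ratio of -0.04 ± 0.10. Inpp5d (SHIP) stood at 235 ± 29 CPM in MON and 244 ± 3 CPM in NEU. Ptpn11 (SHP2) was called higher in MON, at 145 ± 2 CPM in MON and 85.1 ± 0.5 CPM in NEU. Transcripts of all 3 phosphatases were thus present in both groups.

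Kinases that act with these receptors differed in direction. Fyn was called higher in MON, at 276 ± 10 CPM in MON and 47.2 ± 3.2 CPM in NEU, as was Lck, the Src kinase of T and NK cells, at 69.7 ± 3.7 CPM in MON and 22.7 ± 0.3 CPM in NEU. Syk, which acts below DAP12, was called higher in NEU, at 532 ± 6 CPM in MON and 1259 ± 6 CPM in NEU. Lyn and Zap70 were not called, with 630 ± 41 and 9.97 ± 1.2 CPM in MON, against 537 ± 30 and 5.43 ± 1.21 CPM in NEU.

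The class I genes that encode Ly49 ligands were all 3 called higher in MON. H2-K1 averaged 1625 ± 47 CPM in MON and 744 ± 66 CPM in NEU, with a log2 ratio of 1.13 ± 0.09. H2-D1 averaged 2469 ± 267 CPM in MON and 1340 ± 62 CPM in NEU, and B2m, the light chain of class I, 1566 ± 234 CPM in MON and 739 ± 69 CPM in NEU. Klra2 and these 3 genes had log2 ratios of like size, between 0.88 and 1.13.

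The genes with the pattern most like that of each myeloid member were sought by the distance between centered log2 CPM values over the 4 libraries, among genes of similar mean level. For Klra2, among 2212 genes, these were Galnt1, a glycosyltransferase gene (distance 0.0316, with 382 and 358 CPM in MON, against 171 and 177 CPM in NEU), Slc35a3, a nucleotide sugar transporter gene (0.0509), and Pip4k2a, a phosphoinositide kinase gene (0.0511). For Klra17, among 2500 genes, they were Oasl1, an interferon-inducible gene (distance 0.232, with 0.844 and 1.45 CPM in MON, against 21.2 and 23.8 CPM in NEU), Cd200, a membrane glycoprotein gene (0.248, with 0.882 and 1.96 CPM in MON, against 31.3 and 28.2 CPM in NEU), and Oscp1 (0.424). With 4 libraries in 2 groups, such a distance mostly says that the ratio between groups is alike.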

How the data were processed

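RNA-seq libraries of mouse blood MON and NEU (2 each) were analysed from the per-gene tables the authors deposited. The labels name STAR and RSEM on mm10, and the study names the ENCODE long RNA-seq pipeline; whether reads were counted by strand is not stated by the labels or the study. The deposited files give RSEM expected counts, in which reads that match several genes are divided among them, TPM, and the posterior mean and SD of each count. The authors' posterior SDs and effective lengths, deposited as other quantities and as signal, served to judge read sharing. The study names an earlier GENCODE release for its gene quantification. Of 43346 gene entries, 42462 (98%) were named through GENCODE M21, which also gave the coding sequences.

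Members and gene lists were chosen with earlier results of these data known. CPM was computed over gene entries. Expected counts were rounded, filtered with filterByExpr (14309 genes left), scaled by TMM and tested with edgeR 4.0.16 (quasi-likelihood F test, Benjamini-Hochberg, threshold 0.05, R 4.3.3), which was tested on simulated data. The ratio of members is the log2 ratio of group mean CPM, and its SE combines the SDs of log2 CPM. Intervals are exact 95% intervals (Clopper-Pearson) and cover counting error only. Named genes were the members, the other Ly49 genes, in each list the 3 most abundant and 2 most changed genes (all genes of lists with up to 6), and the 3 genes nearest to Klra2 and to Klra17. One result of the kinase list is not reported here. Alternatives included limma 3.58.1 and DESeq2 1.42.0.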

Additional observations from a re-analysis of the deposited data

How the results depend on the processing

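The count of genes called higher in NEU was 3118 by edgeR, 1781 by limma on log2(TPM + 1) and 1650 by limma on log2(TPM + 0.1), both on genes with a TPM of at least 1; that called higher in MON was 2974. Leaving out 1 library at a time gave 1810 to 4675 genes higher in NEU and 1984 to 3987 higher in MON. The summed level of the 8 members had a log2 ratio of 3.17 on the TPM scale, against 2.75 in CPM, because TPM gives less weight to the long Klra2 transcript. No member's log2 ratio changed sign under the alternatives run on that ratio, which do not include division by NK marker counts. Across scalings, posterior mean counts, TPM and a shift by 1 posterior SD, the ratio of Klra2 ran from 0.99 to 1.14. That of Klra17 ran from -4.63 to -4.498. Leaving out a library gave 1.03 to 1.11 for Klra2 and -5.08 to -4.17 for Klra17. On the TPM scale Klra2 held 17.2% of the family in MON and 70.5% in NEU, and Klra17 held 21.6% in NEU. By limma, T cell markers called higher in NEU numbered 4, and dendritic cell markers 3. Neutrophil markers called higher in MON numbered 0 by limma on either scale, so the call of Retnlg depends on the method. Dendritic cell markers called higher in MON numbered 0 on log2(TPM + 1) and 1 on log2(TPM + 0.1). Counts of 3 in an NEU library limit the ratios of Klra3 and Klra4. No paired analysis was possible because the labels carry no replicate numbers: those used here only name the libraries, in accession order, and tie no MON library to an NEU library.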
